A study of Mus musculus with 7 samples.

Results

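Complement is the system of plasma proteins, membrane regulators and receptors that tags microbes and dying cells for uptake and can pierce membranes. The 36 complement genes described here were chosen by symbol from the 20354 rows of the deposited count table, and all 36 had a row. They were measured by RNA sequencing of liver nonparenchymal cells, the liver cells other than hepatocytes, in 7 libraries. Each value is for the whole fraction. The 3 KO libraries came from Shp2f/f:Clec4f-Cre+/- mice, in which Cre driven from Clec4f, expressed by resident Kupffer cells, deletes Shp2 (Ptpn11) in those macrophages. The 4 WT libraries came from mice labelled WT, and the labels do not say whether these carried the floxed allele or the Cre. All mice were of the C57BL/6J strain, untreated and 2 months old. The titles of all 3 KO libraries name Shp2, and these were followed, while their genotype fields read Shp1, Shp2 and Shp3.

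Complement starts by the classical, lectin or alternative route, and all routes meet at the cleavage of C3. C3b then marks the target, C5 is cleaved, and C5b gathers C6 to C9 into the membrane attack complex. Hepatocytes make most circulating complement proteins, whereas C1q and properdin come largely from myeloid cells, and Kupffer cells take up C3b-coated particles through the receptor CRIg, encoded by Vsig4. Accordingly the genes were described as macrophage-made (C1qa, C1qb, C1qc, Cfp and C6), as membrane receptors and regulators, as hepatocyte-made, and as secreted genes of other or mixed source.

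Total counts were between 15263666 and 32003205 in the KO libraries and between 11678385 and 26545605 in the WT libraries. KO replicate 3 and WT replicate 2 stood apart in a principal component analysis, whose leading 2 axes carried 33.9% and 27.5% of the variance. In KO replicate 3, 7.54% of counts fell on ribosomal RNA gene Rn18s, against at most 0.122% in any other library. Mitochondrial genes took 33.2% of counts in KO replicate 2, against 17.3% to 22.4% in the other libraries. Ptpn11 was at 70.0, 79.5 and 86.2 CPM (library-scaled counts, TMM factors) in KO libraries and at 75.3, 95.5, 80.7 and 82.9 CPM in WT libraries, and these groups overlapped. Counts over the whole gene and over all cells of the fraction do not check a deletion in Kupffer cells alone. Clec4f was lower in every KO library, at 436, 454 and 865 CPM, than in any WT library, at 1638, 2656, 1386 and 1887 CPM, but did not pass in edgeR (log2 fold change -1.69 ± 0.39 SE, adjusted p = 0.487). Ddx3y, a Y-linked gene, lay between 83.3 and 138 CPM in all 7 libraries. Counts from the whole fraction cannot tell fewer cells of a type from less RNA per cell.

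Of the 36 genes, 35 passed the filter on low counts, and none of these 35 passed the threshold of 0.05 on the adjusted p in edgeR's quasi-likelihood test. The same test called 0% of the 14077 genes tested, so a count of 0 complement genes is at the background. At an unadjusted p under 0.05, 3 of the 35 were lower in KO (C6, Vsig4 and Fcna) and 0 were higher, where 2.35% of all genes tested were lower and 2.27% higher. The fold changes of 30 of the 35 were below 0 and those of 5 above, where 6803 of all 14077 genes were below 0. The median of the 35 was -0.18 on the log2 scale, against 0.01 over all genes. The complement genes were chosen with earlier results of these data known. Such counts beside the share of all genes, here and below, are therefore a description and not a test. Of the 30, 17 were hepatocyte-made genes. The median of the hepatocyte-made genes was -0.15 and became 0.24 without WT replicate 4. DESeq2 called 1 complement gene, C6, where it called 0.398% of all genes lower in KO. In simulated counts of 13915 genes DESeq2 made 31 false calls and edgeR 7. The simulated libraries shared the same mean level within a group, with none set apart as KO replicate 3 and WT replicate 2 were. These false calls therefore cannot say whether the call of C6 is true. Limma voom called 0 of the 35, as did voom with library quality weights, which called 0% and 0.0639% of all genes. The gene that missed the filter was Cfd, which encodes factor D, the protease that cuts factor B. It had 0, 4 and 4 counts in KO libraries and 0, 1, 0 and 1 in WT libraries, at or near the 3 counts that a count of 0 can hide.

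**Figure D1:**
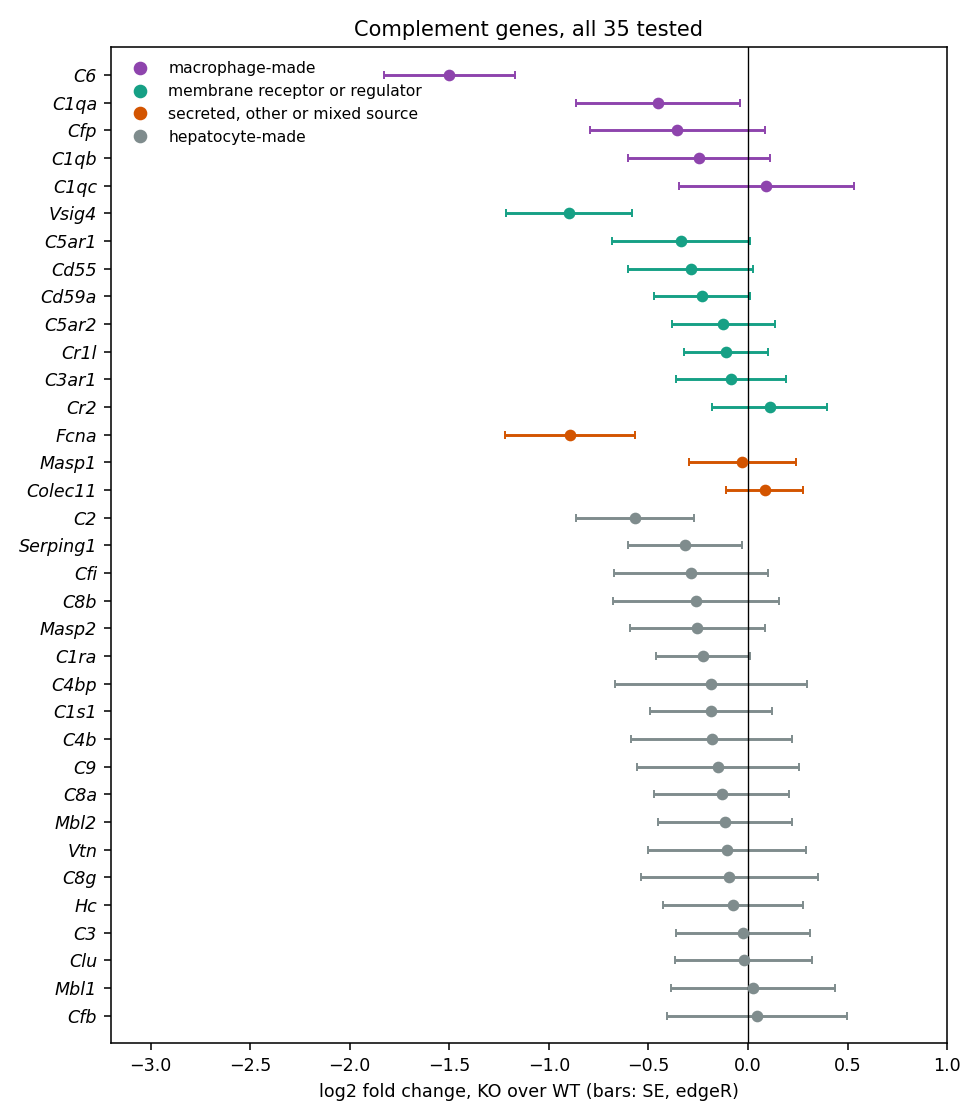
Log2 fold change (KO over WT, horizontal axis) of the 35 complement genes tested, with bars giving the standard error from edgeR and colours giving the source group. C6, Vsig4 and Fcna lie farthest to the left, at -1.50, -0.90 and -0.89, and most hepatocyte-made genes have bars that cross 0.

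The 3 genes with the lowest unadjusted p are known from macrophages. C6, which binds C5b in the first step of membrane attack, was at 107, 99.7 and 108 CPM in KO libraries, against 211, 481, 198 and 299 CPM in WT libraries. The KO values lay close together and all below the lowest WT value. The mean was 105 ± 4.74 CPM in KO (SD, n = 3) and 297 ± 131 CPM in WT (SD, n = 4). The log2 fold change of C6 was -1.50 ± 0.33 (SE), a fitted KO level 0.354 times that of WT. It did not pass in edgeR (unadjusted p = 0.00097, adjusted p = 0.419), while DESeq2 called it (adjusted p = 0.00218). WT replicate 2 was the highest library, and without it the log2 fold change of C6 was -1.17 ± 0.21 (SE).

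Vsig4 encodes the C3b receptor of resident tissue macrophages. It was at 469, 399 and 413 CPM in KO libraries, against 696, 1220, 597 and 672 CPM in WT libraries. The groups did not overlap, and WT replicate 2 again lay far above the others. The log2 fold change of Vsig4 was -0.90 ± 0.32 (SE; quasi-likelihood test, unadjusted p = 0.0173, adjusted p = 0.956), and it was -0.62 ± 0.20 (SE) without WT replicate 2. Without KO replicate 2 its unadjusted p was 0.063 in edgeR. Together C6 and Vsig4 were the 2 complement genes whose KO values all lay below all WT values, with 0 the other way round. Of all genes tested, 3.05% were non-overlapping and lower in KO and 3.03% non-overlapping and higher.

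Fcna encodes ficolin A, a lectin that recognises acetylated sugars and starts the lectin route. It was at 102, 83.1 and 187 CPM in KO libraries, against 185, 319, 190 and 227 CPM in WT libraries. KO replicate 3 reached the level of WT replicate 1, so the groups touched there, and the other KO libraries lay well below. The log2 fold change of Fcna was -0.89 ± 0.33 (SE; quasi-likelihood test, unadjusted p = 0.0202, adjusted p = 0.956). It was -1.32 ± 0.29 (SE) without KO replicate 3, and the unadjusted p was 0.0707 without KO replicate 1 and 0.0836 without KO replicate 2 in edgeR. KO replicate 2 is the library with the most mitochondrial counts, and the part of RNA quality in these values was not tested.

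The promoter windows of these genes are shown because they are the members with the lowest unadjusted p. Each window runs from 250 bases before to 50 bases after the annotated start, 5′ to 3′ on the gene's strand, from RefSeq on GRCm38.p6. The counts were made on GRCm39, so these coordinates apply to the sequence only. Capitals mark the letters of 5 searched motifs on either strand: a PU.1-type motif, spelled GAGGAA, a C/EBP-type motif, spelled TTGCNNAA, the TATA box as TATAAA, a MAF half-site as TGCTGAC, and an HNF4-type motif as CAAAGTCCA. PU.1 and MAF factors act in macrophages, and HNF4 in hepatocytes.
C6, chr15:4726960-4727259, plus strand: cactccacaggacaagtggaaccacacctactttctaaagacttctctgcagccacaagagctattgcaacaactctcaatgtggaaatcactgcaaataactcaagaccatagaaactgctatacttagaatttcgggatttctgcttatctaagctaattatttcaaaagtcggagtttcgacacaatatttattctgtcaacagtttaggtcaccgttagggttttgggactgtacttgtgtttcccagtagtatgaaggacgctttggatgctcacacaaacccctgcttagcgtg
Vsig4, chrX:96293389-96293688, minus strand: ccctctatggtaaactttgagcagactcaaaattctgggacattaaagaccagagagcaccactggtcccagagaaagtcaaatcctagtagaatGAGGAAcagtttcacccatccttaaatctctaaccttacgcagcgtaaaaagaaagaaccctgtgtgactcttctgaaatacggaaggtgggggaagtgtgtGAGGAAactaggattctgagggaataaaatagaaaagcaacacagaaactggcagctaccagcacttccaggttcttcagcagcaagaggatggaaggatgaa
Fcna, chr2:25627925-25628224, minus strand: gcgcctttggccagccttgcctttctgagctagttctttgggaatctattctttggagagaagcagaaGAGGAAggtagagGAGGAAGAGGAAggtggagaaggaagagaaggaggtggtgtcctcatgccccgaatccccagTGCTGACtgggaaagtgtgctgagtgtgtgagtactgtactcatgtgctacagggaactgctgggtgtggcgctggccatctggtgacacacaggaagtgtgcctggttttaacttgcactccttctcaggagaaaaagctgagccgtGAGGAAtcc

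The C6 window held none of the 5 motifs as spelled. The Vsig4 window held GAGGAA at 155 and at 53 bases before the start. The Fcna window held GAGGAA at 182, 169 and 163 bases before the start and 42 bases after it, the middle pair lying end to end, and TGCTGAC at 107 bases before. RefSeq windows were found for 28 of the 36 genes (31 windows), and not for C1qa, C2, C4b, Cfb, Cfi, Clu, Masp1 or Serping1. GAGGAA was in 8 of these 31 windows and in 28.3% of all 32851 promoter windows of that length. It was in 3 of 4 windows of macrophage-made genes and in 1 of 15 of hepatocyte-made genes. Among membrane genes it was in 3 of 9 windows, and among genes of other or mixed source in 1 of 3. TTGCNNAA was in 5 of the 31 windows (10.8% of all), TATAAA in 4 (13.6%), TGCTGAC in 3 (4.67%) and CAAAGTCCA in 0 (0.475%). A match of letters is no sign of binding, and a missing match says only that these letters were not in the window.

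The C1q chains and properdin had their highest KO value in KO replicate 3, as Fcna did. C1qa, C1qb and C1qc encode the chains of C1q, the recognition molecule of the classical route, and lie next to each other on chromosome 4 in RefSeq's GRCm38.p6. C1qa was at 78.6, 102 and 243 CPM in KO libraries, against 185, 279, 114 and 192 CPM in WT libraries. C1qb was at 235, 294 and 538 CPM in KO libraries, against 321, 608, 314 and 443 CPM in WT libraries. C1qc was at 71.8, 91.7 and 276 CPM in KO libraries, against 123, 197, 94.6 and 135 CPM in WT libraries. In all 3 genes KO replicates 1 and 2 lay below every WT library, while KO replicate 3 lay at or above most of them and, for C1qc, above all. Their log2 fold changes were -0.45 ± 0.41 for C1qa, -0.25 ± 0.36 for C1qb and 0.09 ± 0.44 for C1qc (SE; quasi-likelihood test, adjusted p from 0.956 to 0.983).

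Cfp encodes properdin, which stabilises the C3 convertase of the alternative route and is the only known positive regulator of the system. It was at 68.8, 81.6 and 222 CPM in KO libraries, against 123, 249, 98.8 and 164 CPM in WT libraries. As for the C1q chains, KO replicate 3 stood among the highest libraries and the other KO libraries below all WT libraries. Its log2 fold change was -0.36 ± 0.44 (SE; quasi-likelihood test, adjusted p = 0.956). Without KO replicate 3, the library rich in Rn18s, the log2 fold changes were -1.10 ± 0.35 for C1qa, -0.75 ± 0.30 for C1qc and -1.08 ± 0.37 for Cfp (SE). Each of these had an unadjusted p under 0.05 and none passed after adjustment (edgeR, adjusted p of 0.825 to 0.833), and C1qb was at -0.67 ± 0.34 (SE). In that setting 7 complement genes were lower at an unadjusted p under 0.05, where 3.09% of all genes were. They were C1qa, C1qc, Cfp, C6, Vsig4, Fcna and the receptor gene C5ar1. The count was 6 without both KO replicate 3 and WT replicate 2 (3.96% of all genes), 6 with voom and quality weights (5.51%) and 1 without KO replicate 2 (2.08%). The part of RNA quality in the KO replicate 3 values was likewise not tested. The windows of the C1q and properdin genes are shown for comparison with those of C6, Vsig4 and Fcna, with the same motifs in capitals.
Cfp, chrX:20931506-20931805, minus strand: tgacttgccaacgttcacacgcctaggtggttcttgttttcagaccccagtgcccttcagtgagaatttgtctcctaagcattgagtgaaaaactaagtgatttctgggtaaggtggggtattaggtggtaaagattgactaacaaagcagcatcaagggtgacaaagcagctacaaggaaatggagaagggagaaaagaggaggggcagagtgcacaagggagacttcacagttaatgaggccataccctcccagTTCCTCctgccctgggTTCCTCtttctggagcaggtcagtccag
C1qb, chr4:136886151-136886450, minus strand: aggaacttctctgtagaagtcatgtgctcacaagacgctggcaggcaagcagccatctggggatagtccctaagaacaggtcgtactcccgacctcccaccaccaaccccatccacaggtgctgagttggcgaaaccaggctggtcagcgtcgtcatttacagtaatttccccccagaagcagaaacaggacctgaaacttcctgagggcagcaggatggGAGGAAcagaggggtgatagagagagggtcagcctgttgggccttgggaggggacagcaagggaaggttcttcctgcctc
C1qc, chr4:136892865-136893164, minus strand: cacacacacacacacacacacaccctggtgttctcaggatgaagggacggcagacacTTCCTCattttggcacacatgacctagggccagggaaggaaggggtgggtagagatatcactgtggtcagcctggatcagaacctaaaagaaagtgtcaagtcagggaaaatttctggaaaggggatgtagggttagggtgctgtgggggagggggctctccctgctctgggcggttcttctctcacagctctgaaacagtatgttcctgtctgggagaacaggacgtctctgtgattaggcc

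Each of these windows held GAGGAA or its reverse complement TTCCTC and none of the other motifs. In C1qb it lay 30 bases before the start, in C1qc 193 bases before, and in Cfp 7 and 23 bases after.

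**Figure D2:**
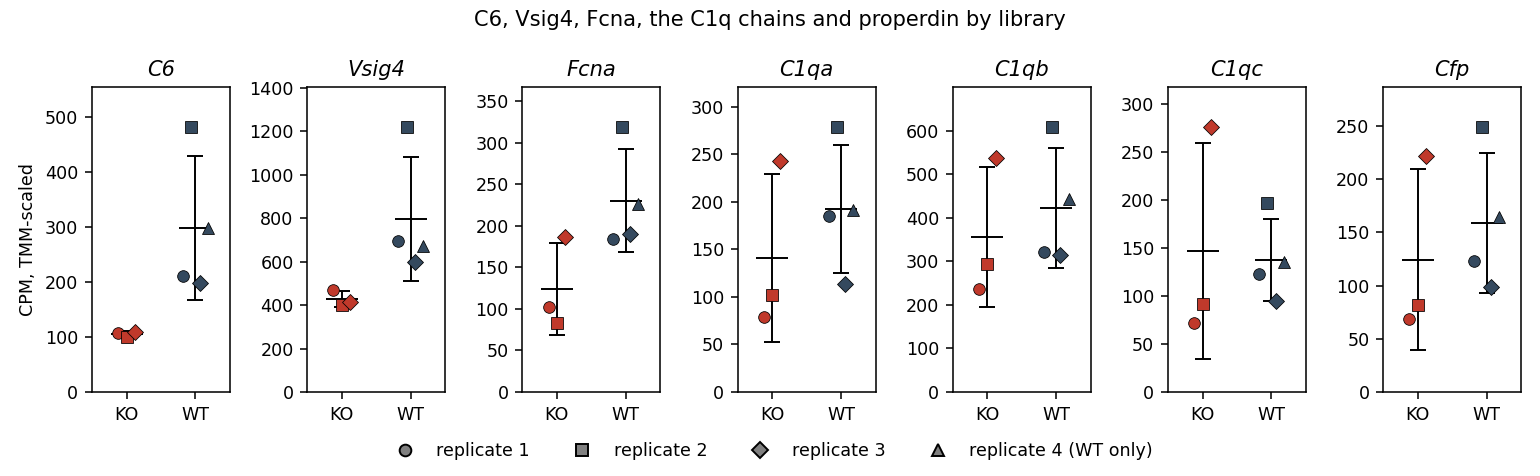
CPM (TMM-scaled, vertical axes from 0) of C6, Vsig4, Fcna, C1qa, C1qb, C1qc and Cfp in the 3 KO and 4 WT libraries, with the mean and SD as a horizontal mark and bars. The KO libraries are tightly grouped for C6, near 105 CPM, while KO replicate 3 stands far above the other KO libraries for the C1q chains and Cfp.

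Whether C6, Vsig4, Cfp or Fcna differed from C1qa in their change was tested on the log2 ratio within each library, with 4 ratios in all. The ratio of C6 to C1qa averaged -0.25 ± 0.83 in KO (SD, n = 3) and 0.60 ± 0.29 in WT (SD, n = 4). The difference of -0.85 did not pass a two-sided exact permutation test (p = 0.0857, adjusted p = 0.343), whose smallest possible p is 0.0286. The ratios of Fcna, Vsig4 and Cfp to C1qa differed by -0.39, -0.29 and 0.08 on the log2 scale between KO and WT (exact permutation tests, adjusted p of 0.457, 0.714 and 0.714). The result depended on the C1q chain used. Set against C1qb and C1qc, the ratio of C6 differed by -1.12 and -1.29 and that of Fcna by -0.66 and -0.83 on the log2 scale. All 4 of these had p = 0.0286 in the exact permutation test, the smallest it can give, with an adjusted p of 0.0571. Without KO replicate 3 the ratio of C6 to C1qa differed by -0.39.

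Several markers of Kupffer cells also had lower values in KO libraries, and their part in the C6, Vsig4 and Fcna values was not tested. Of 12 markers in the list, all were detected and tested, 9 had a log2 fold change below 0, and 4 of these had an unadjusted p under 0.05 (Clec4f, Cd163, Timd4 and Folr2). Hmox1, Cd5l, Il18bp, Slc40a1 and Nr1h3 lay between -0.26 and -0.02, and Marco, Spic and Id3 were above 0. Cre is driven from Clec4f in the KO mice, and whether the Cre allele altered the level of Clec4f was not tested. DESeq2, which called C6, also called Cd163 (adjusted p = 4.37e-12), Clec4f (adjusted p = 0.000213) and Timd4 (adjusted p = 0.00252), and voom with quality weights called Cd163 and Clec4f. The summed level of the 12 markers, which includes Clec4f, was between 3185 and 4426 CPM in KO libraries and between 4095 and 8273 CPM in WT libraries. Of 10 general macrophage markers, 7 were below 0 and 0 had an unadjusted p under 0.05, and their summed level was between 4618 and 5083 CPM in KO and between 4190 and 7919 CPM in WT libraries, highest in WT replicate 2. Set against that sum, C6 amounted to 2.32%, 2.07% and 2.13% in KO libraries and 4.44%, 6.08%, 4.73% and 6.42% in WT libraries. Vsig4 amounted to 10.2%, 8.31% and 8.12% in KO libraries and 14.6%, 15.4%, 14.3% and 14.5% in WT libraries. Fcna amounted to 2.20%, 1.73% and 3.67% in KO libraries and 3.88%, 4.03%, 4.54% and 4.87% in WT libraries. On this measure the groups did not overlap in any of these genes, although Fcna did overlap in CPM. The sum includes Lyz2, at 2461, 2306 and 2258 CPM in KO libraries and 2063, 1839, 1786 and 2019 CPM in WT libraries. A higher Lyz2 value makes every KO share lower. The share of all genes that would not overlap on this measure was not computed. C1qa did overlap, at 1.70%, 2.12% and 4.77% in KO libraries and 3.89%, 3.52%, 2.72% and 4.12% in WT libraries. These shares were chosen with the fold changes known and are given as a description. Sinusoidal endothelial markers were also highest in WT replicate 2, at 10123 CPM in sum against 3894 to 5280 CPM in the other WT libraries and 4244 to 6223 CPM in KO libraries, and their part in the values of that library was not tested. Of 6 monocyte markers, 4 were above 0 and 2 below, and 2 had an unadjusted p under 0.05 (Cx3cr1 and Plac8, both higher in KO). Cx3cr1 was at 12.2, 13.7 and 23.9 CPM in KO libraries and 5.85, 3.36, 3.24 and 4.96 CPM in WT libraries. DESeq2 and voom with quality weights called Cx3cr1, and edgeR did not (adjusted p = 0.267). The part of monocyte-like cells in the complement values was not tested.

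With all 7 libraries, none of the remaining receptors and membrane regulators had an unadjusted p under 0.05 in edgeR. C3ar1, the receptor for C3a, was at 32, 24.6 and 37.0 CPM in KO libraries, against 29.4, 50.3, 23.0 and 29.5 CPM in WT libraries. C5ar1, the main receptor for C5a, was at 4.33, 3.90 and 8.35 CPM in KO libraries, against 5.37, 9.52, 5.15 and 7.69 CPM in WT libraries. The groups overlapped in both genes, with log2 fold changes of -0.08 ± 0.27 for C3ar1 and -0.34 ± 0.35 for C5ar1 (SE; quasi-likelihood test, adjusted p of 0.981 and 0.956). With 1 library left out C5ar1 ranged from -0.76 to -0.15, and its unadjusted p was 0.0385 without KO replicate 3 and 0.0414 in voom with quality weights. C5ar2, the second C5a receptor, averaged 25.1 ± 2.89 CPM in KO (SD, n = 3) and 27.4 ± 9.0 CPM in WT (SD, n = 4). Cr2, the complement receptor of B cells, was at 16.2, 10.8 and 7.23 CPM in KO libraries, against 11.1, 8.49, 12.4 and 10.7 CPM in WT libraries. KO replicate 1 was the highest and KO replicate 3 the lowest of all 7 for Cr2, and its log2 fold change of 0.11 ± 0.29 (SE) became -0.24 without KO replicate 1.

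Cells protect themselves from complement with Cr1l (Crry) and Cd55, which limit the convertases, and with Cd59a, which blocks membrane attack. Cd55 averaged 542 ± 73.3 CPM in KO (SD, n = 3) and 662 ± 226 CPM in WT (SD, n = 4). Cr1l averaged 156 ± 29.9 CPM in KO and 168 ± 16.8 CPM in WT (SD). Cd59a averaged 230 ± 38.2 CPM in KO and 270 ± 49.6 CPM in WT (SD). None of these regulators had an unadjusted p under 0.05, and their log2 fold changes lay between -0.29 and -0.11. Over the 8 membrane genes the median log2 fold change was -0.18, with 7 below 0. It was -0.067 without WT replicate 2 and 0.034 without both WT replicate 2 and KO replicate 3. Reads of near-identical genes may be shared with Cd55 and Cd59a; Cd55b was at or under 0.355 CPM and Cd59b at or under 2.56 CPM in every library.

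**Figure D3:**
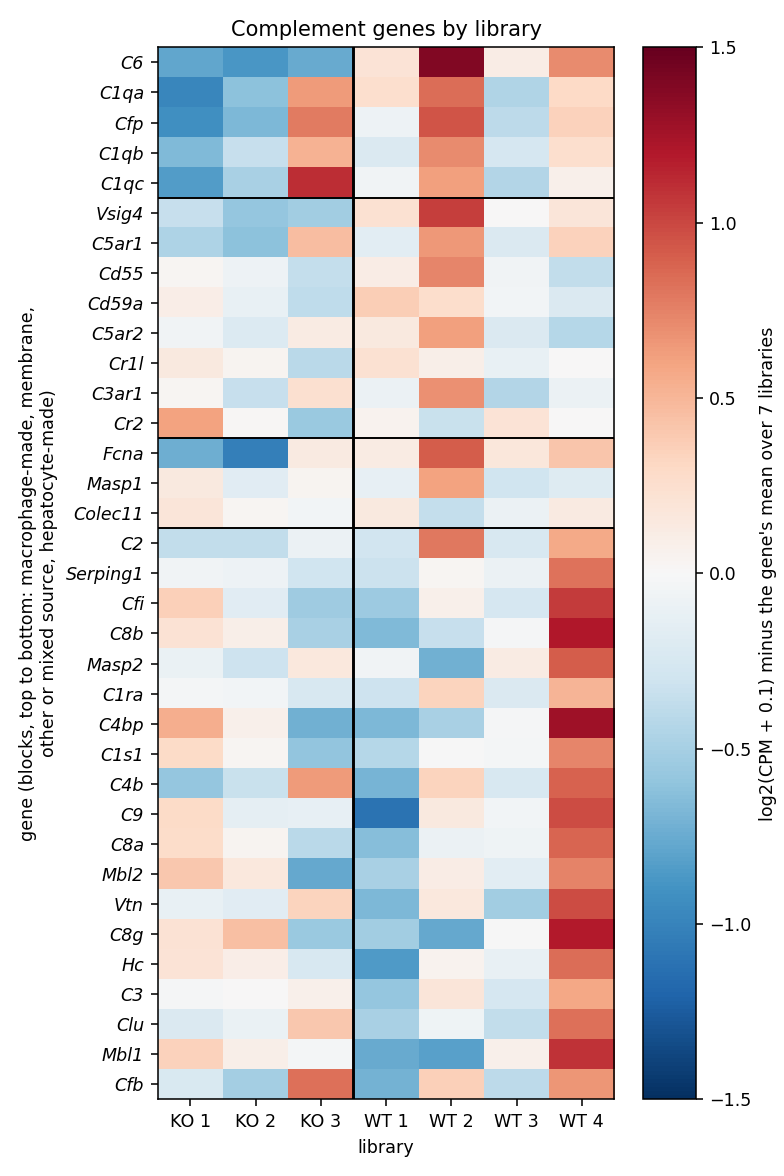
Difference of each gene's log2(CPM + 0.1) from its mean over the 7 libraries (colour), for the 35 complement genes tested (rows, in blocks by source) and the 3 KO and 4 WT libraries (columns). C6 and Vsig4 are low in all 3 KO libraries, the C1q and Cfp rows are high in KO replicate 3 and WT replicate 2, and most hepatocyte-made rows are high in WT replicate 4.

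Among the hepatocyte-made genes no difference between the groups passed the test. None of the 19 had an unadjusted p under 0.05, and their log2 fold changes lay between -0.57 and 0.04, with a median of -0.15 that became 0.24 without WT replicate 4. C3, the protein on which all routes meet, was at 1183, 1211 and 1269 CPM in KO libraries, against 807, 1361, 1010 and 1796 CPM in WT libraries. The KO values lay inside the WT range, and the log2 fold change of C3 was -0.03 ± 0.34 (SE; quasi-likelihood test, adjusted p = 0.993). C2, the protease of the classical and lectin convertase, had the lowest fold change of the group, with 14.2 ± 1.64 CPM in KO (SD, n = 3), 21.0 ± 7.88 CPM in WT (SD, n = 4) and a log2 fold change of -0.57 ± 0.29 (SE; quasi-likelihood test, adjusted p = 0.956).

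The sum over the 19 hepatocyte-made genes was 4039, 3762 and 3723 CPM in KO libraries, against 2516, 3970, 3326 and 6858 CPM in WT libraries. The sum over 12 hepatocyte markers, such as Alb, was 45800, 33620 and 24011 CPM in KO libraries, against 22846, 36311, 36113 and 68895 CPM in WT libraries. WT replicate 4 was highest and WT replicate 1 lowest on both sums. The complement sum amounted to 8.82%, 11.2% and 15.5% of the marker sum in KO libraries and to 11%, 10.9%, 9.21% and 9.95% in WT libraries. KO replicate 3 had the highest share. All 12 markers were detected, and 11 of the 12 had a log2 fold change below 0. The 1 with an unadjusted p under 0.05 was Tat, at -1.97 ± 0.57 (log2, SE), which DESeq2 called (adjusted p = 0.0263) and edgeR did not. Hepatocytes are not part of a nonparenchymal preparation by definition, and which cells these counts came from was not tested.

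**Figure D4:**
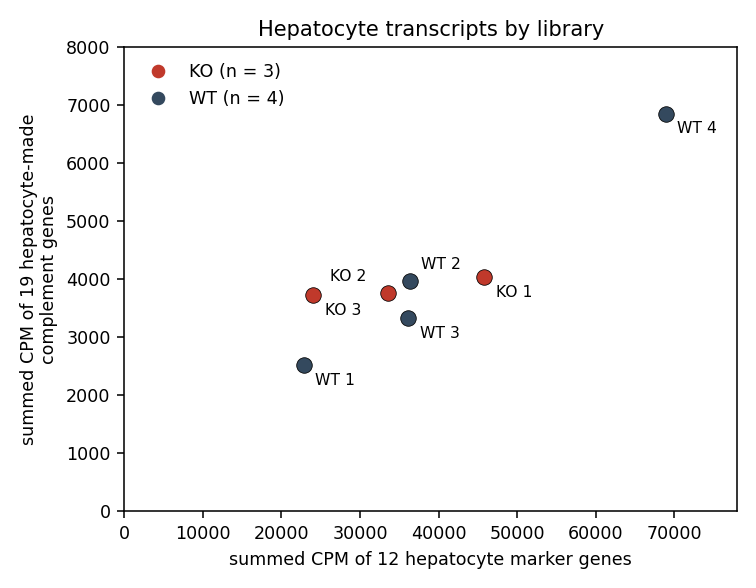
Summed CPM of the 19 hepatocyte-made complement genes (vertical axis) against the summed CPM of 12 hepatocyte marker genes (horizontal axis), 1 point per library. WT replicate 4 lies highest on both axes, at 6858 and 68895 CPM, and the KO libraries lie between 3723 and 4039 CPM on the vertical axis.

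Within the terminal pathway the other genes had no unadjusted p under 0.05. Hc, which encodes C5, had a log2 fold change of -0.08 ± 0.35, and C9, which forms the pore, one of -0.15 ± 0.40 (SE). The C8 chain genes C8a, C8b and C8g were at -0.13 ± 0.34, -0.26 ± 0.42 and -0.09 ± 0.45 (SE), all with an adjusted p of at least 0.965 in edgeR. A difference between C6 and these genes was not tested. In the classical route the proteases C1ra and C1s1 and their inhibitor Serping1 were at -0.23 ± 0.24, -0.18 ± 0.31 and -0.32 ± 0.29 (log2, SE). C4b, whose product joins C2 in the convertase, was at -0.18 ± 0.41 (log2, SE). The near-identical C4a was at 1.09 to 8.04 CPM over the 7 libraries, and C1rb and C1s2, the relatives of C1ra and C1s1, were at or under 0.185 CPM. How reads common to such pairs were counted is not stated, so the values of C4b, C1ra and C1s1 are uncertain to that extent.

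In the lectin route the mannose-binding lectin genes Mbl1 and Mbl2 were at 0.03 ± 0.41 and -0.11 ± 0.34, and their protease genes Masp1 and Masp2 at -0.03 ± 0.27 and -0.25 ± 0.34 (log2, SE). Colec11, another collectin that uses these proteases, was at 0.08 ± 0.19 (log2, SE), so among 6 lectin route genes Fcna alone had an unadjusted p under 0.05. Cfb, the alternative route's protease, was low throughout, at 1.97, 1.60 and 4.2 CPM in KO libraries and 1.38, 3.0, 1.74 and 3.74 CPM in WT libraries. None of the soluble regulators had an unadjusted p under 0.05, with factor I (Cfi) at -0.29 ± 0.39, C4b-binding protein (C4bp) at -0.19 ± 0.48, clusterin (Clu) at -0.02 ± 0.35 and vitronectin (Vtn) at -0.11 ± 0.40 (log2, SE).

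Levels can be set against each other only per length, and CPM was divided by the length of all exons of each gene in GENCODE M21. On that scale Vsig4 was second in KO libraries, at 288 ± 24.8 CPM per kb (SD, n = 3), and led in WT libraries, at 537 ± 192 CPM per kb (SD, n = 4). C1qb led in KO libraries, at 327 ± 147 CPM per kb, and was second in WT libraries, at 388 ± 127 CPM per kb (SD). C3 followed in both groups, at 237 ± 8.52 CPM per kb in KO and 242 ± 84.3 CPM per kb in WT (SD). C6 was in place 24 of 36 in KO libraries, at 29.6 ± 1.33 CPM per kb, and in place 15 in WT libraries, at 83.6 ± 36.7 CPM per kb (SD). The genes in the first and second place differed by less than the larger of their SDs in either group. The lengths join the exons of all transcripts of a gene, and the annotation behind the counts is not stated. The places are therefore approximate.

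Other complement genes outside the 36 were tested in the same fit. Of 33 with a row, 25 were tested, 0 passed after adjustment, and 1 was lower at an unadjusted p under 0.05, with 0 higher, against the background of 2.35% lower. This was Colec12, a scavenger receptor with a collagen-like stem that can start the alternative route. It was at 17.3, 13.8 and 14.4 CPM in KO libraries, against 18.5, 40.6, 29.2 and 28.8 CPM in WT libraries, with no overlap. Its log2 fold change was -0.95 ± 0.26 (SE; quasi-likelihood test, unadjusted p = 0.00485, adjusted p = 0.733). Itgb2, the shared chain of the C3b-fragment receptors CR3 and CR4, was at -0.49 ± 0.23, while its partners Itgam and Itgax were at -0.46 ± 0.36 and 0.06 ± 0.21 (log2, SE). The median log2 fold change over the 25 genes was -0.20.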

How the data were processed

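The authors deposited raw whole-number read counts per gene in 1 table of 20354 rows, with a column for each of the 7 libraries. Total RNA went into libraries of the TruSeq RNA v2 kit, which does not mark strand, per the labels' protocols. FastQC 0.11.9, STAR 2.7.10a, SAMtools 1.9, featureCounts 2.0.3 and GRCm39 are named in the submitters' processing notes. Which annotation and settings were used is not stated in these sources, so reads of overlapping or near-identical genes may be shared.

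Counts were tested with edgeR 4.0.16 in R 4.3.3 (quasi-likelihood functions glmQLFit and glmQLFTest, robust) on TMM factors, with genotype group as the only term, after filterByExpr (minimum count 10, minimum total 15). P-values were adjusted by Benjamini-Hochberg over the 14077 genes kept, at a threshold of 0.05, and CPM was scaled by TMM. Log2 CPM in the ratios used a prior count of 2. A count of 0 can hide 3 counts, or 0.0909 to 0.249 CPM. Exact permutation tests ran over the 35 ways of choosing 3 of 7 libraries. Alternatives were DESeq2 1.42.0, limma 3.58.1 (voom, without and with quality weights), other scalings and filters, and leaving out libraries. The fitting code was tested on simulated counts with 100 genes changed 2-fold and 100 changed 4-fold. DESeq2 found 46 and 97 of these with 31 false calls, and edgeR found 27 and 92 with 7 false calls. Voom made 4 false calls, and voom with quality weights made 3. The simulation held no library set apart from its group, so these numbers check the code and not the calls in these data. The labels do not say that each library came from a separate mouse, so p-values measure the spread between libraries. The complement genes, lists and tests were chosen with earlier results of these data known. Values in every library were given for C1qa, C1qb, C1qc, Cfp, C6, Fcna, Vsig4, C3, C3ar1, C5ar1 and Cr2 by rule, and other genes by mean or range. The rule also took any other complement gene with an unadjusted p under 0.05, which added Colec12. Cfb, Cfd and Masp1 per library, and Itgb2, Itgam and Itgax, were chosen after their values were seen.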

Additional observations from a re-analysis of the deposited data

Results flagged for a closer look

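Among the 4 WT libraries, 2 of the 35 complement genes tested had a library that stood apart from the rest, where chance gives about 1 in 20 genes. The count is near that rate, and the gaps were taken on CPM without logs. For Vsig4, WT replicate 2 lay above the others at 1220 CPM, with a gap to the next library of 0.841 of the group's range. For Masp1, which encodes a protease of the lectin route, WT replicate 2 was at 371 CPM, against 225, 198 and 214 CPM in the other WT libraries, a gap of 0.847 of the range. The KO libraries were at 271, 218 and 252 CPM for Masp1. Both gaps passed Dixon's limit for 4 samples, and the same library held the highest sums of endothelial and macrophage markers.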

How the results depend on the processing

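Over 17 alternatives, C6 had a log2 fold change between -1.65 and -1.15 and an unadjusted p under 0.05 in all 17. Vsig4 lay between -1.01 and -0.59, with 16 of 17 under 0.05, and Fcna between -1.32 and -0.69, with 15 of 17. After adjustment C6 passed with DESeq2 (log2 fold change -1.52, adjusted p = 0.00218), so that 1 complement gene was called there, and its adjusted p over the alternatives lay between 0.00218 and 0.946. The count of complement genes lower at an unadjusted p under 0.05 was 6 with voom and quality weights and 6 without both WT replicate 2 and KO replicate 3. It ranged from 1 (without KO replicate 2) to 7 (without KO replicate 3) when 1 library was left out, against 3 with all libraries. The median over macrophage-made genes ranged from -1.08 (without KO replicate 3) to -0.053 (without WT replicate 2).

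Genes with values near 0 changed sign. C1qc was at -0.041 with voom, -0.40 with voom and quality weights, -0.53 without both WT replicate 2 and KO replicate 3, and -0.75 to 0.41 with 1 library left out. C3 was at 0.059 with voom, 0.15 with quality weights, 0.016 with upper quartile factors, and -0.19 to 0.21 with 1 library left out. C3ar1 was at 0.0497 with quality weights, at 0.051 without both libraries, and at -0.23 to 0.19 with 1 left out, and Cr2 at -0.24 to 0.35. The ratio of Cfp became -0.19 to C1qb and -0.35 to C1qc, and lay between -0.015 and 0.14 to C1qa with 1 library left out. In the same settings C6 was at -1.12 and -1.29 and Fcna at -0.66 and -0.83, each with p = 0.0286 in the exact permutation test, against -0.85 (p = 0.0857) and -0.39 (p = 0.229) to C1qa. The ratio of Vsig4 to C1qa was 0.24 without both libraries and -0.69 to 0.22 with 1 left out. The cause of these shifts was not tested. With 1 library left out, the exact tests cannot reach a p of 0.05. No paired analysis was possible because the labels give the libraries of both groups no shared numbers.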

Other observations

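Within C1q, the ratio of C1qc to C1qa on the CPM scale was 0.914, 0.902 and 1.14 in KO libraries, against 0.664, 0.706, 0.831 and 0.706 in WT libraries, and the groups did not overlap. This ratio was chosen after the values were seen, and of the 3 chain ratios it had the lowest p (two-sided exact permutation test, p = 0.0571, adjusted p = 0.171). The ratio of C1qb to C1qa was 3.0, 2.89 and 2.22 in KO libraries and 1.73, 2.18, 2.75 and 2.31 in WT libraries (p = 0.171 in the same exact test). The ratio of C1qc to C1qb was 0.305, 0.312 and 0.513 in KO libraries and 0.383, 0.323, 0.302 and 0.306 in WT libraries (p = 0.6 in the same exact test).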
